A study of Mus musculus with 2 samples.

Results

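The BCL2 family decides, at the outer membrane of the mitochondrion, whether a stressed cell lives or dies. Transcripts of 10 of its genes were followed in transformed mouse bone marrow progenitors after induced deletion of Cebpa, the gene of the myeloid transcription factor C/EBPα. The genes were chosen by symbol, with no threshold on their values, and each matched 1 row of a table of 23309 gene rows. They comprise 3 anti-apoptotic genes (Bcl2, Bcl2l1 and Mcl1), 2 effectors (Bax and Bak1) and 5 BH3-only genes (Bcl2l11, Bbc3, Pmaip1, Bid and Bmf).

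The effectors BAX and BAK can pierce the outer mitochondrial membrane and release cytochrome c, which starts the caspase cascade. The anti-apoptotic proteins BCL2, BCL-XL and MCL1 hold them in check. BH3-only proteins, named for the single short domain they share with the rest of the family, bind the anti-apoptotic proteins or the effectors and so carry death signals. In blood cells grown with a cytokine this balance is known to set survival when the cytokine is withdrawn.

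Treated cells had received 5 nM 4-hydroxytamoxifen (4OHT) for 72 h, and the cells they were set against had received ethanol, its vehicle, for the same time. Both came from lineage-depleted bone marrow of the genotype Cebpaf/f;CreER, in which 4OHT activates a Cre recombinase that cuts out loxP-flanked Cebpa, and both carried the retroviruses MIGR1-HA-Hoxa9 and MIGR1-Flag-Meis1 and grew with interleukin-3. Which promoter drives CreER is not stated in the labels. There was 1 deposited sample per condition, each joining 2 replicates, so each gene has 1 value per condition and there is no error between replicates to give. Values are FPKM, which correct a count for the length of the transcript and the size of the library, and may be compared between genes. The comparison asks what differs after 4OHT, and loss of Cebpa cannot be told apart from whatever else 4OHT or active Cre does.

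Cebpa had 42.8 FPKM in 4OHT cells and 109 FPKM in vehicle cells, so 39.2% of the vehicle level was left (q = 0.00165 in the authors' deposited table). Progenitor markers were present, with Cd34 at 493 FPKM in 4OHT cells and 284 FPKM in vehicle cells, and 5 of 8 T and B cell markers, among them Cd3e and Pax5, were listed at 0. Marker levels of several cell types moved with the treatment, and genes are counted as higher or lower here where the q in the authors' deposited table was under 0.05. Late neutrophil markers summed to 82.7 FPKM in 4OHT cells and 146 FPKM in vehicle cells, with 4 of 7 tested genes called lower. Most of that sum was Lcn2, called lower (21.0 FPKM in 4OHT cells, 57.2 FPKM in vehicle cells), and Padi4, not called (51.7 and 62.1 FPKM). Ltf, Ngp, Camp and Mmp9 of that list were below 1 FPKM in both conditions and not called. Monocyte markers summed to 526 FPKM in 4OHT cells and 887 FPKM in vehicle cells, with 6 of 9 called lower and 1 called higher. Ly6c2 made up most of the monocyte sum, with 323 FPKM in 4OHT cells and 551 FPKM in vehicle cells. Stem and early progenitor markers summed to 1145 FPKM in 4OHT cells and 692 FPKM in vehicle cells, with 7 of 8 called higher. Mast cell and basophil markers summed to 1217 FPKM in 4OHT cells and 731 FPKM in vehicle cells, with 4 of 6 tested genes called higher. Cpa3 made up most of the mast cell sum, with 975 FPKM in 4OHT cells and 562 FPKM in vehicle cells. Mcpt8 and Ms4a2 of that list were not called, and Kit is counted in both lists. Across all tested rows, 2.8% were called higher and 3.11% lower. In such bulk samples, fewer cells of a type and less RNA per cell cannot be told apart, and the part of these shifts in the values that follow was not tested.

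A gene is said to have risen or fallen where the authors' deposited table gave it status OK and a q under 0.05. All 10 family genes had status OK, and 9 of them reached 1 FPKM in the higher condition. Of the 10, 2 rose (Bbc3 and Bcl2l11), 1 fell (Pmaip1) and 7 did not pass the test. Across all 11953 tested rows 5.91% passed, 2.8% higher and 3.11% lower. With so few genes, the count of 3 is a description. The 3 genes that passed are all among the 5 BH3-only genes. None of the 3 anti-apoptotic genes or the 2 effectors passed, although 2 anti-apoptotic genes had an unadjusted p under 0.05 in the authors' deposited table, as did 12.3% of all tested rows. The median log2((4OHT FPKM + 1)/(vehicle FPKM + 1)) was 0.08 over the 9 genes of at least 1 FPKM, beside 0.00 over all such tested rows.

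**Figure D1:**
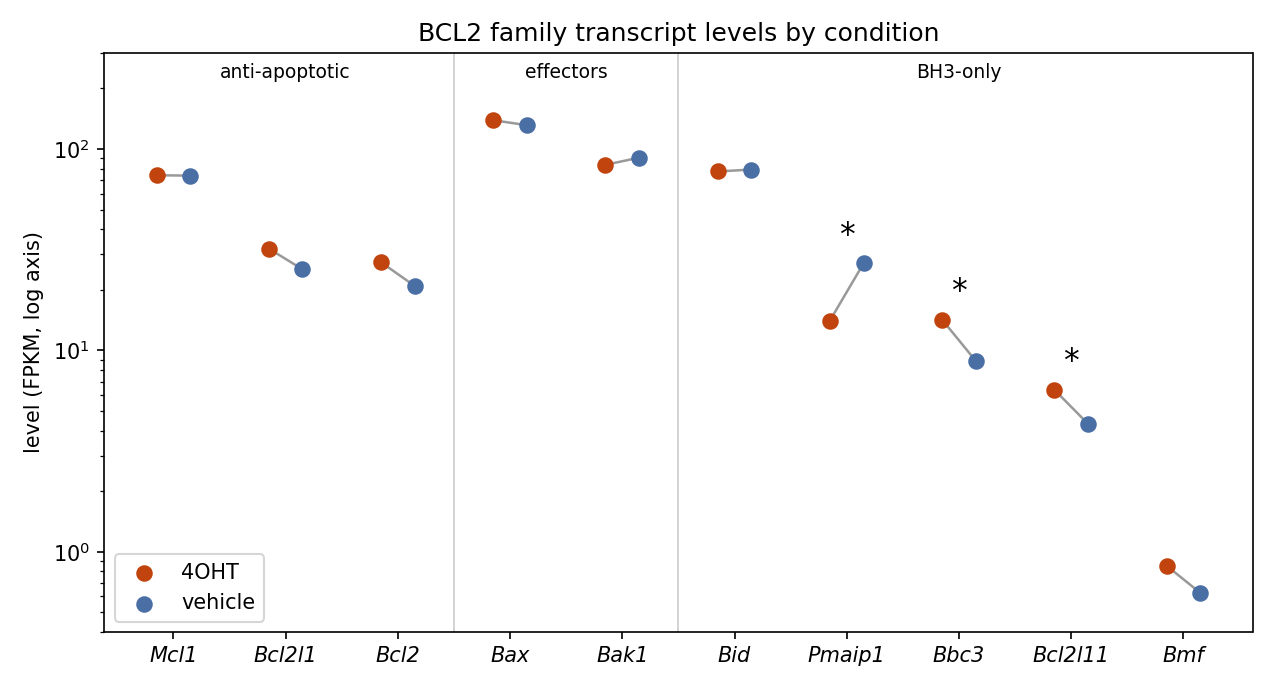
Levels of the 10 family genes in FPKM on a log axis, grouped by role, with 1 point per condition (4OHT left, vehicle right) and no error bars, since each condition has 1 value. Asterisks mark the genes called from the authors' deposited table. Pmaip1 slopes up toward vehicle, Bbc3 and Bcl2l11 slope down toward it, and Mcl1, Bax, Bak1 and Bid lie nearly level.

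The BH3-only genes that passed moved in opposite directions. Pmaip1, which encodes NOXA, a selective partner of MCL1, had 14.1 FPKM in 4OHT cells and 27.1 FPKM in vehicle cells. It fell to 52.0% of the vehicle level, a difference of -0.90 on the log2(FPKM + 1) scale. Its q of 0.00165 is the floor of the authors' deposited table, which 363 tested rows share, and its locus is on chromosome 18 of mm9, 66618258 to 66625212. Its change was larger in size than those of 97.7% of tested rows.

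Bbc3, which encodes PUMA, a BH3-only protein that binds all the main anti-apoptotic members and is a textbook target of p53, had 14.2 FPKM in 4OHT cells and 8.86 FPKM in vehicle cells. It rose 1.60-fold (difference 0.62 on the log2(FPKM + 1) scale; q = 0.0148 in the authors' deposited table). Its locus is on chromosome 7 of mm9, 16894932 to 16903683. Bcl2l11, which encodes BIM, a BH3-only protein that can kill blood cells deprived of cytokine, had 6.37 FPKM in 4OHT cells and 4.31 FPKM in vehicle cells. It rose 1.48-fold (difference 0.47 on the log2(FPKM + 1) scale), and its locus is on chromosome 2 of mm9, 127951774 to 127988283. Its q of 0.0479 in the authors' deposited table is just inside the threshold. A further column of that table, whose yes entries are the called rows with a change of at least 1.5-fold, holds Pmaip1 and Bbc3 and leaves Bcl2l11 out. The first family gene outside the threshold was Bcl2, with q = 0.192 there.

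Bbc3 and Pmaip1 stood at nearly the same level in 4OHT cells, with a ratio of Bbc3 to Pmaip1 of 1.01, against 0.327 in vehicle cells. In the order of levels Pmaip1 took place 8 of 10 in 4OHT cells and place 5 in vehicle cells. In absolute terms the fall of Pmaip1 exceeded the gains of 5.34 FPKM for Bbc3 and 2.06 FPKM for Bcl2l11 combined. The 3 genes together summed to 34.7 FPKM in 4OHT cells and 40.3 FPKM in vehicle cells.

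The other BH3-only genes did not pass the test. Bid, whose protein is cut by caspase-8 and links death receptors to the mitochondrion, was the most abundant BH3-only transcript, with 77.4 FPKM in 4OHT cells and 79.1 FPKM in vehicle cells (chromosome 6 of mm9, 120843137 to 120866838). Bmf, which encodes a BH3-only protein known for its tie to the cytoskeleton, was the scarcest of the 10, with 0.852 FPKM in 4OHT cells and 0.625 FPKM in vehicle cells (chromosome 2, 118354493 to 118375414). Changes of its size were not called at so low a level. Of 283 tested rows below 1 FPKM with a change of 1.2-fold to 1.5-fold, 0 passed in the authors' deposited table and 1 had an unadjusted p under 0.05.

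Bbc3 and Bcl2l11, the genes that rose, are both known targets of the FOXO transcription factors, which act when growth factor signalling is low. Their promoters are shown for that reason, from RefSeq on the build GRCm38.p6, which is not the build of the deposited loci. Each runs from 250 bases before to 50 bases after a start site, on the plus strand. Capitals mark the FOXO core TGTTTAC, read on either strand (GTAAACA on the other), which was searched after the values of these genes had been seen. The Bbc3 window is chr7:16310011-16310310 and the Bcl2l11 window chr2:128125788-128126087.
Bbc3: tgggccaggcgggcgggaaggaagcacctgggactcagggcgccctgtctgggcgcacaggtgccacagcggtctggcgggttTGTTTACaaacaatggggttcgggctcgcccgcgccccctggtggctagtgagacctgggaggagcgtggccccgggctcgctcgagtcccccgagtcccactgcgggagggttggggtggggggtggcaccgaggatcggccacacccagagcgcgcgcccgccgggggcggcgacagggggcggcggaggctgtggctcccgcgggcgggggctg
Bcl2l11: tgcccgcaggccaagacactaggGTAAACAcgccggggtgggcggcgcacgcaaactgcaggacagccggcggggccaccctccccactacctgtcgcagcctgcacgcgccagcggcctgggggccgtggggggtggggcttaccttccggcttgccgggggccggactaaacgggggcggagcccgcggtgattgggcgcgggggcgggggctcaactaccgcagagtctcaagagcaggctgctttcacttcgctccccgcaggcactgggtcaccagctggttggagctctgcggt

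The core begins 167 bases before the Bbc3 start site and 227 bases before that of Bcl2l11. RefSeq windows were found for 9 of the 10 genes, all but Pmaip1, and numbered 16 because several genes have more than 1 start site. The other 2 Bbc3 windows, the other Bcl2l11 window and all windows of the other 7 genes hold no match to the core. Of 32851 mouse promoter windows of this length, 3.65% hold it, and of 27025 genes 4.05% have it in at least 1 window. A match of 7 letters is a description of sequence and not a binding site. Foxo3, the most abundant of the 3 FOXO genes listed, had 18.01 FPKM in 4OHT cells and 15.4 FPKM in vehicle cells and did not pass the test.

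C/EBPα itself binds a short sequence, searched here on both strands as the pattern TTGCNNAA and as its palindromic form TTGCGCAA, which the pattern includes. The palindrome occurred in none of the windows of the 9 genes, and in 0.183% of all windows. The pattern occurred in 3 windows, 2 of Bmf and 1 of Bid, and in 10.8% of all windows. It was in no window of Bbc3 or Bcl2l11. The matches are shown in capitals within 30 bases each, on the minus strand of the genome, along which both genes run, and in the second Bmf stretch and in Bid the pattern reads on the opposite strand. They lie at chr2:118544771-118544800 and chr2:118547626-118547655 for Bmf and at chr6:120916896-120916925 for Bid.
Bmf, chr2:118544771-118544800: gggcttgcctcTTGCCGAAtgcagcagtga
Bmf, chr2:118547626-118547655: tgtttgttgtgTTGTGCAAggagggggtgg
Bid: gacccttgggtTTCCGCAAagtgtggccag

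The p53 decamer, the unit that p53 sites repeat, was found in 1 window each of Bax and Bmf and in 8.36% of all windows. These windows cover only the bases next to start sites, and no match says only that the letters are absent there. Neither gene with a match passed the test.

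The anti-apoptotic genes showed no called change. Mcl1, whose short-lived protein myeloid progenitors need to survive, was the most abundant of the 3 and had nearly equal values, 74.1 FPKM in 4OHT cells and 73.8 FPKM in vehicle cells (chromosome 3 of mm9, 95462643 to 95467101). Bcl2l1, which encodes BCL-XL, had 32.0 FPKM in 4OHT cells and 25.3 FPKM in vehicle cells, with q = 0.338 in the authors' deposited table (chromosome 2, 152606404 to 152657418). Bcl2, the founding member of the family, had 27.4 FPKM in 4OHT cells and 20.9 FPKM in vehicle cells, with q = 0.192 there (chromosome 1, 108434756 to 108610867).

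The ratio of 4OHT to vehicle was 1.31 for Bcl2 and 1.27 for Bcl2l1, with unadjusted p of 0.017 and 0.038 in the authors' deposited table. Changes of that size were seldom called at their level. Of 424 tested rows between 20 and 100 FPKM with a change of 1.2-fold to 1.5-fold, 45 passed, or 10.6%. The smallest change that passed was 1.39-fold, so both ratios lay under what was called at that level. Mcl1 stood at 2.70 times the level of Bcl2 in 4OHT cells and 3.53 times in vehicle cells. The ratio of Mcl1 to Pmaip1, whose proteins bind each other, was 5.26 in 4OHT cells and 2.73 in vehicle cells.

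The effectors were the most abundant transcripts of the family and did not pass the test. Bax had 139 FPKM in 4OHT cells and 131 FPKM in vehicle cells (chromosome 7 of mm9, 52717065 to 52722268). Bak1 had 83.5 FPKM in 4OHT cells and 90.7 FPKM in vehicle cells (chromosome 17, 27154980 to 27173323). Together they summed to 223 FPKM in 4OHT cells and 222 FPKM in vehicle cells. Both had q of 1.00 in the authors' deposited table. Bak1 shares its deposited locus with Ggnbp1, which had 1.15 FPKM in 4OHT cells and 1.31 FPKM in vehicle cells. No other row overlapped any of the remaining 9 loci.

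**Figure D2:**
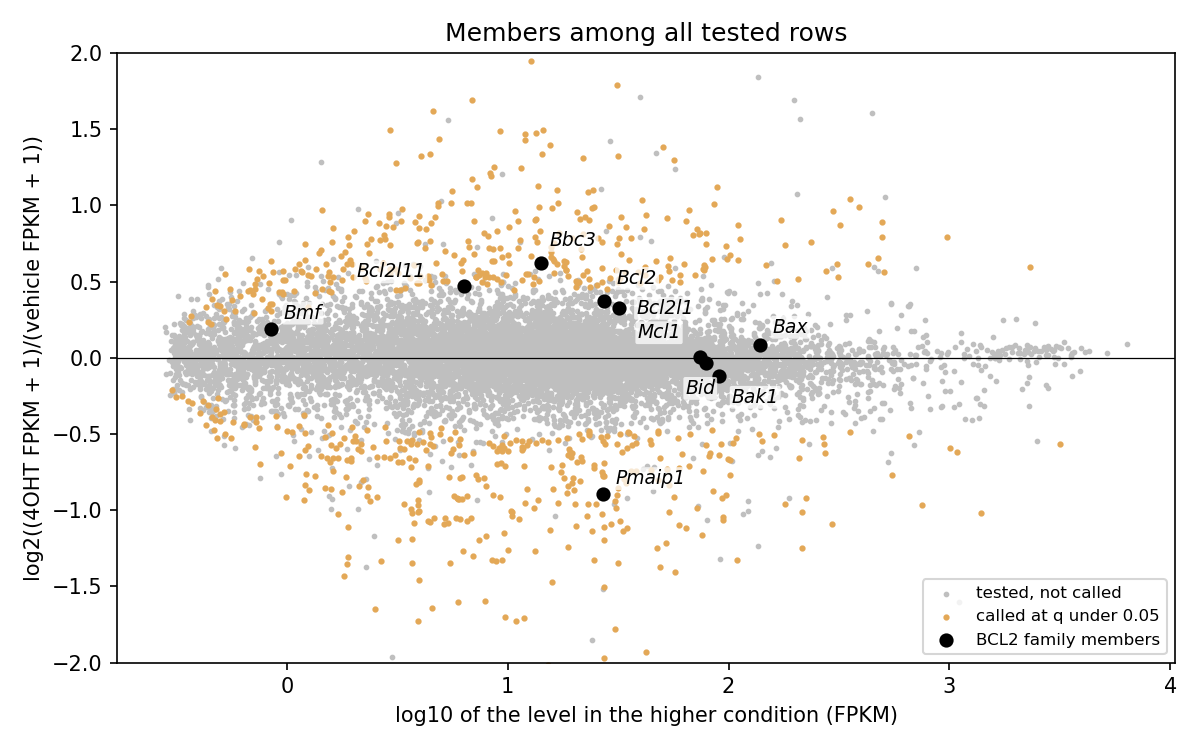
Each tested row by the log10 of its FPKM in the higher condition (horizontal) and its log2((4OHT FPKM + 1)/(vehicle FPKM + 1)) (vertical), with rows called from the authors' deposited table in orange and the 10 family genes in black. Pmaip1 lies among the called rows below 0 and Bbc3 and Bcl2l11 among those above. Bcl2 and Bcl2l1 lie above 0 among the rows not called, and 47 rows beyond 2 in size are not drawn.

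Seen by role, the summed levels differed by ratios of 4OHT to vehicle between 0.940 and 1.08. With the other family genes of each role added (Bcl2l2 and the Bcl2a1 rows, Bok, and Bad, Bik and Hrk), anti-apoptotic genes summed to 146 FPKM in 4OHT cells and 135 FPKM in vehicle cells. Effectors summed to 223 FPKM in 4OHT cells and 222 FPKM in vehicle cells, and BH3-only genes to 127 FPKM in 4OHT cells and 135 FPKM in vehicle cells. The anti-apoptotic share of the sum was 29.5% in 4OHT cells and 27.4% in vehicle cells, and the BH3-only share 25.55% in 4OHT cells and 27.4% in vehicle cells. Bid alone made up most of the BH3-only sum, and without it that sum was 49.3 FPKM in 4OHT cells and 55.6 FPKM in vehicle cells. The opposite changes of Pmaip1 on the one hand and of Bbc3 and Bcl2l11 on the other partly offset each other in the sum, which has no test.

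**Figure D3:**
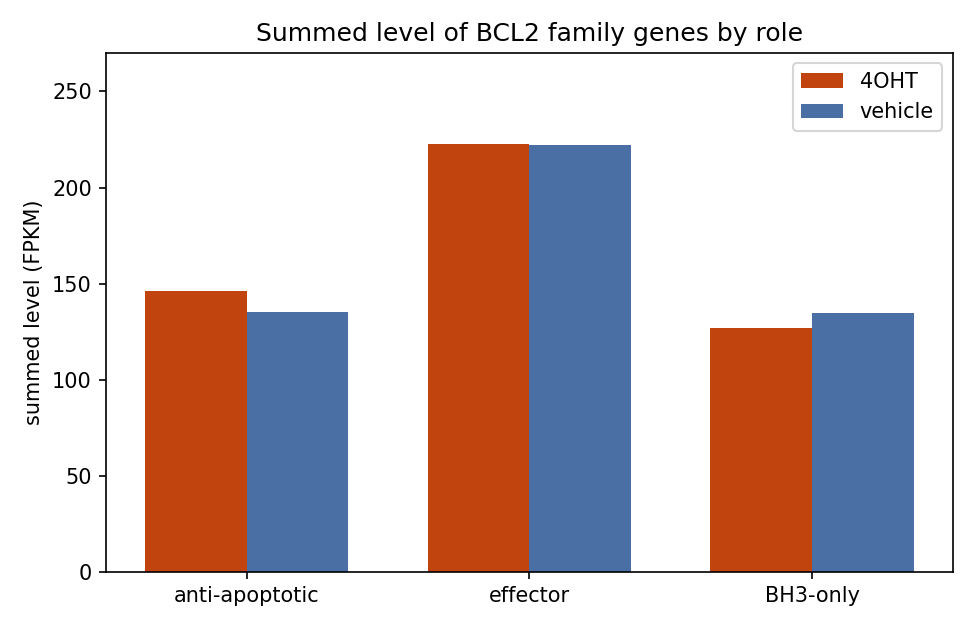
Summed FPKM of family genes by role (bars from 0, 4OHT left and vehicle right, 1 value per condition and no error bars). Anti-apoptotic genes stand at 146 FPKM in 4OHT cells and 135 FPKM in vehicle cells, effectors at 223 FPKM in 4OHT cells and 222 FPKM in vehicle cells, and BH3-only genes at 127 FPKM in 4OHT cells and 135 FPKM in vehicle cells.

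The nearest tested rows on either side of the 10 loci, looked at after the values of the members, held no called gene among 20, and 3 of them had an unadjusted p under 0.05 in the authors' deposited table. Across all tested rows 5.91% were called and 12.3% had an unadjusted p under 0.05, so these counts are a description. Those 3 neighbours were Lman1, Adamtsl4 and Gm14005, all with lower values in 4OHT cells. Lman1, beside Pmaip1, had the smallest unadjusted p of the 3 in the authors' deposited table. Its values were 79.0 FPKM in 4OHT cells and 110 FPKM in vehicle cells, lower as for Pmaip1. Adamtsl4, beside Mcl1, had 2.17 FPKM in 4OHT cells and 3.07 FPKM in vehicle cells. The neighbour of Bcl2l11 on 1 side was Gm14005, a long noncoding RNA also named Morrbid, which is known to repress Bcl2l11 in short-lived myeloid cells of the mouse. It had 26.5 FPKM in 4OHT cells and 38.7 FPKM in vehicle cells, with p = 0.0215 and q = 0.228 in the authors' deposited table, and did not pass the test. Its locus begins 136116 bases from the end of that of Bcl2l11. The values of the RNA and of Bcl2l11 differ in opposite directions, 1 called and 1 not, and no relation between them can be tested with 1 value per condition.

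Other genes of the apoptosis and survival pathways were described from 10 lists made by role. Of 105 tested genes on them 6 rose and 2 fell, or 7.62%, beside 5.91% of all tested rows. For the single lists below, the shares of all tested rows were 2.8% called higher and 3.11% called lower. An unadjusted p under 0.05 in the authors' deposited table was held by 12.3% of all tested rows. Their median log2 ratio, over the genes of at least 1 FPKM, was 0.01, beside 0.00 over all such tested rows.

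Among 8 tested relatives of the family, 1 rose and none fell, and 2 had an unadjusted p under 0.05 in the authors' deposited table. Bcl2l14, which encodes BCL-G, rose to 1.87 FPKM in 4OHT cells, against 0.869 FPKM in vehicle cells (q = 0.0158 in the authors' deposited table). Bcl2l12 had 20.9 FPKM in 4OHT cells and 18.9 FPKM in vehicle cells. Bcl2l13 had 15.8 FPKM in 4OHT cells and 16.2 FPKM in vehicle cells. Bad, a BH3-only gene whose protein is silenced by survival kinases, had 13.8 FPKM in 4OHT cells and 14.7 FPKM in vehicle cells. Bcl2l2, the anti-apoptotic gene of BCL-W, had 11.6 FPKM in 4OHT cells and 13.1 FPKM in vehicle cells. The Bcl2a1 copies, anti-apoptotic genes of neutrophils and mast cells, were all below 1 FPKM, and how reads were split between these very similar copies is uncertain. Bok, Bik and Hrk were at most 0.272 FPKM in either condition, and Bcl2l10 was listed at 0.

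Of 7 tested BH3-like mitochondrial proteins, 1 fell and none rose, and 1 had an unadjusted p under 0.05 in the authors' deposited table. Bnip3, a mitophagy receptor induced by low oxygen, fell to 59.2 FPKM in 4OHT cells, against 102 FPKM in vehicle cells (q = 0.00165 in the authors' deposited table). Its close relative Bnip3l did not pass, with 42.6 FPKM in 4OHT cells and 45.5 FPKM in vehicle cells. Nor did Becn1, an autophagy gene whose protein binds BCL2, with 57.2 FPKM in 4OHT cells and 58.5 FPKM in vehicle cells. Bnip2 and Fundc1 did not pass either.

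Downstream of the mitochondrion, 1 of 11 tested genes on the list of IAP proteins, which block caspases, and their antagonists rose and 1 fell, and 3 had an unadjusted p under 0.05 in the authors' deposited table. Diablo, whose protein leaves the mitochondrion and relieves IAP block, rose to 39.0 FPKM in 4OHT cells, against 26.0 FPKM in vehicle cells (q = 0.0111 in the authors' deposited table). Naip1, a sensor of bacterial proteins with IAP-type repeats, fell to 0.0999 FPKM in 4OHT cells, against 0.314 FPKM in vehicle cells (q = 0.0175 there), and shares sequence with its sister copies. Birc5, the gene of survivin, did not pass, with 95.3 FPKM in 4OHT cells and 105 FPKM in vehicle cells. Nor did Htra2, a mitochondrial protease that antagonises IAPs, with 71.1 FPKM in 4OHT cells and 83.7 FPKM in vehicle cells. Xiap, a direct caspase inhibitor, had 13.6 FPKM in 4OHT cells and 12.6 FPKM in vehicle cells and did not pass.

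None of 11 apoptosome and caspase genes passed, and none had an unadjusted p under 0.05 in the authors' deposited table. Cycs, the gene of cytochrome c, had 77.8 FPKM in 4OHT cells and 90.3 FPKM in vehicle cells. None of 11 genes of outer membrane channels, import and fission passed either, with 0 at an unadjusted p under 0.05, and Vdac2, a partner of BAK, had 205 FPKM in 4OHT cells and 218 FPKM in vehicle cells. In the death receptor arm 0 of 10 genes passed and 1 had an unadjusted p under 0.05. That gene was Tnfrsf1a, a receptor for tumour necrosis factor, with 30.7 FPKM in 4OHT cells and 42.4 FPKM in vehicle cells and q = 0.0758 in the authors' deposited table. Casp8, which cuts BID, had 62.6 FPKM in 4OHT cells and 57.1 FPKM in vehicle cells.

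**Figure D4:**
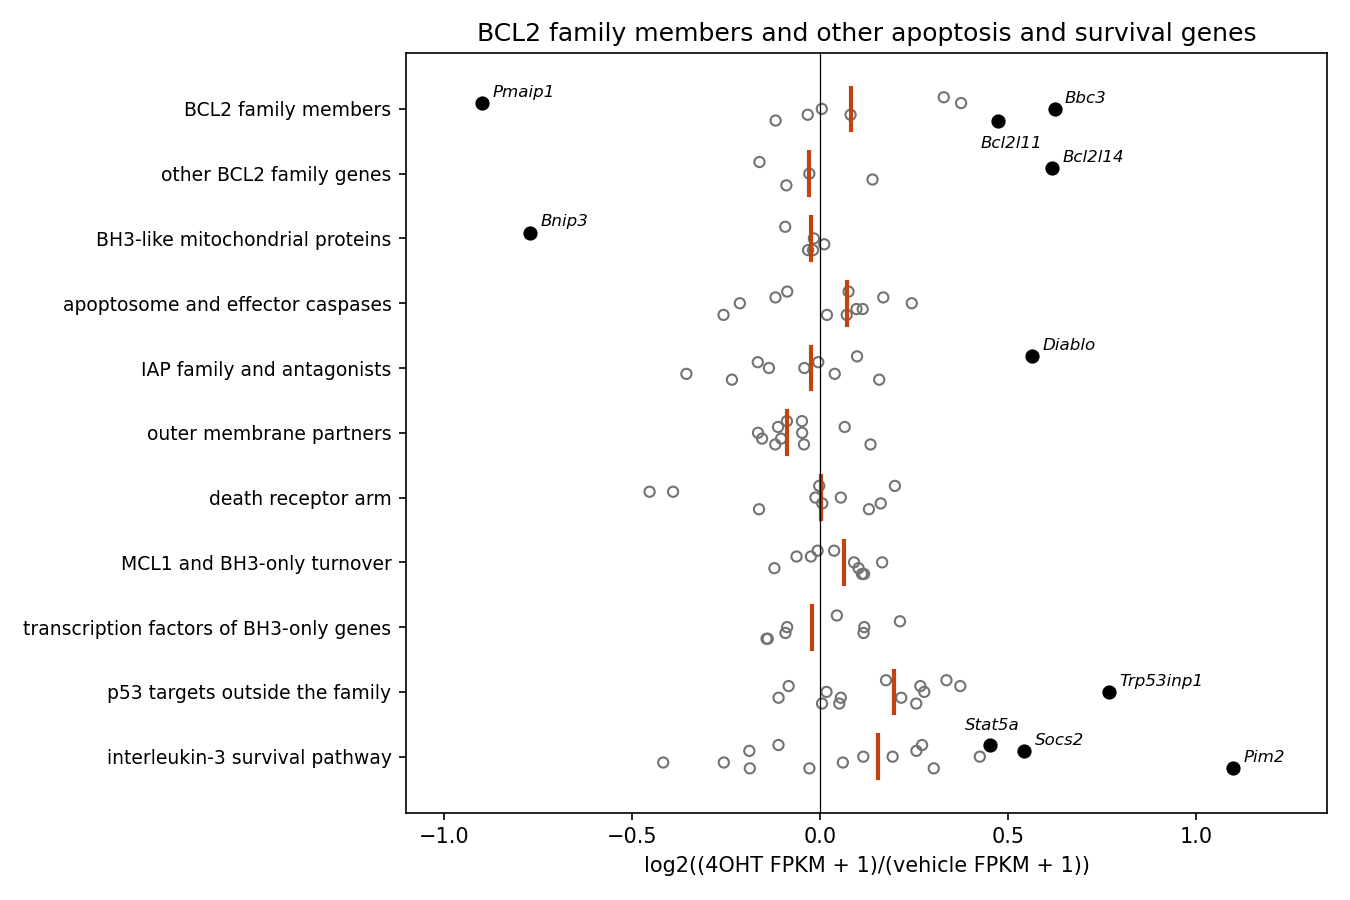
log2((4OHT FPKM + 1)/(vehicle FPKM + 1)) of genes of at least 1 FPKM, in the family (top) and 10 lists of other apoptosis and survival genes, each point 1 gene. Filled points were called from the authors' deposited table, open points were not, vertical placement within a list carries no value, and red bars are list medians, which lie between -0.09 and 0.20.

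Regulators of the family held few called genes. None of 10 genes for turnover or sequestration of MCL1 and BH3-only proteins passed, with 0 at an unadjusted p under 0.05 in the authors' deposited table. Among them Ywhae had 274 FPKM in 4OHT cells and 279 FPKM in vehicle cells, and Dynll1, a dynein light chain that binds BIM, 74.7 FPKM in 4OHT cells and 81.3 FPKM in vehicle cells. None of 8 tested transcription factors that act on BH3-only genes passed, again with 0 at an unadjusted p under 0.05. Trp53, the gene of p53, had 122 FPKM in 4OHT cells and 112 FPKM in vehicle cells. Atf4, a stress factor that can raise Pmaip1, had 285 FPKM in 4OHT cells and 315 FPKM in vehicle cells. Of 14 p53 target genes outside the family, 3 had an unadjusted p under 0.05 there, beside 12.3% of all tested rows. Of the 14, 1 was called, beside 5.91% of all tested rows. It was Trp53inp1, which rose to 4.45 FPKM in 4OHT cells against 2.20 FPKM in vehicle cells (q = 0.00165 in the authors' deposited table). Cdkn1a, the gene of the cell cycle inhibitor p21, had 52.3 FPKM in 4OHT cells and 43.3 FPKM in vehicle cells and did not pass. The list's median log2 ratio was 0.20. Among the called family genes, Bbc3 and Pmaip1 are both known p53 targets, and the first rose while the other fell. Bax and Bmf, each with the p53 decamer in 1 window, did not pass, and Bax had 139 FPKM in 4OHT cells and 131 FPKM in vehicle cells.

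The interleukin-3 survival pathway, through which these cultures receive their growth signal, had 3 called genes of 16, all higher, beside 2.8% of all tested rows called higher. An unadjusted p under 0.05 stood at 6 of the 16 in the authors' deposited table, beside 12.3% of all tested rows. Pim2, a survival kinase that phosphorylates BAD, rose to 24.3 FPKM in 4OHT cells, against 10.8 FPKM in vehicle cells (q = 0.00165 in the authors' deposited table). Socs2, a feedback gene induced by STAT5, rose to 60.5 FPKM in 4OHT cells, against 41.2 FPKM in vehicle cells, with q = 0.0111 there. Stat5a, which encodes a transcription factor known to activate Bcl2l1, rose to 28.1 FPKM in 4OHT cells, against 20.3 FPKM in vehicle cells, with q = 0.0499 there, at the edge of the threshold. Stat5a no longer passed when the deposited p was adjusted over tested rows of at least 1 FPKM alone, and at a q under 0.01 Pim2 alone of the 3 did. Pim1, a relative of Pim2, did not pass, with 269 FPKM in 4OHT cells and 290.1 FPKM in vehicle cells. Nor did Cish, another STAT5 target, with 95.5 FPKM in 4OHT cells and 88.0 FPKM in vehicle cells. Akt1 and Pik3cd, kinase genes of the same arm, did not pass either. The list's median log2 ratio was 0.15.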

How the data were processed

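Gene expression was measured by RNA sequencing. Per the labels' protocols, column-purified, DNase-treated RNA went into Illumina TruSeq RNA libraries; strandedness is not stated, so antisense reads cannot be told apart. Per the submitters' processing notes, the tools were Cuffdiff 2.0.2, Bowtie2 2.0.0.7 and CASAVA 1.8.2, on mm9, with no role stated. The authors deposited 1 FPKM value per gene and condition and, per row, a p-value and a q-value. Recomputing Benjamini-Hochberg values from the deposited p over 11953 tested rows gave the deposited q, with differences up to 5.28e-07. Every deposited p of a tested row is a whole multiple of 5e-05 (within 0.001 of a step), a grid that may not belong to the Cuffdiff release named, and the test behind the p-values is not stated. The table holds no read counts, so depth is unknown, no interval is given and no test was run here. Any p or q says nothing of separate cultures beyond the 2 replicates joined in each sample, whose origin is not given.

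Values were read by gene symbol, log2 ratios were taken with a pseudocount of 1 FPKM, which understates the change of low genes, and list medians cover genes of at least 1 FPKM. Deposited loci are written from 1. Promoters came from RefSeq on GRCm38.p6; protein sequences were not used here. Named were all members, every called gene of each list, and up to 4 others of each list in order of level. Foxo3, Gm14005, Lman1, Adamtsl4, the named neutrophil and monocyte markers and the ratios between genes were chosen after values were seen. The members and lists were chosen with earlier results of these data known. The adjustment and calling steps were tested on simulated data. Python 3.11.15, pandas 2.3.3 and numpy 2.4.6 were used.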

Additional observations from a re-analysis of the deposited data

How the results depend on the processing

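All 10 family genes kept the direction of their log2 ratio under 5 alternatives of pseudocount and scaling, 50 values in all. That says little, since a change of pseudocount cannot reverse a direction. The scalings moved log2 ratios by about 0.023 at most, too little to reverse any of the 10. Mcl1 and Bid stayed within 0.04 of 0 in each alternative. At a q under 0.01 only Pmaip1 passed, 1 gene in place of 3, beside 459 of all rows in place of 707 and 3 pathway genes in place of 8. With a change of at least 1.5-fold asked as well, 2 family genes and 5 pathway genes passed, beside 629 of all rows. By 1.5-fold on the log2(FPKM + 1) scale without q, 2 family and 4 pathway genes did, beside 581 of all rows. Adjusting the deposited p over tested rows of at least 1 FPKM left 3 family genes, 629 of all rows and 6 pathway genes; Stat5a lost its call, and Naip1, below 1 FPKM, was not among the rows adjusted. Bcl2l11 was lost in both 1.5-fold cases, by the size of its change. The members' median log2 ratio of 0.08 was 0.11 with equal summed FPKM, 0.093 with equal upper quartiles and 0.14 with Bmf included. Log2 ratios of role sums, 0.12 for anti-apoptotic genes, 0.00 for effectors and -0.09 for BH3-only genes, became 0.14, 0.028 and -0.066 with equal summed FPKM, and 0.13 for anti-apoptotic genes without the Bcl2a1 rows. No paired analysis was possible because each condition has 1 deposited value that joins both replicates, and for the same reason no replicate could be left out. With no read counts, the depth behind each value is unknown, and the least change called sets what could be seen.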
